A study of Lepidium sativum with 107 samples.

Results

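The nuclear genes of photosynthesis were followed through the germination of garden cress (Lepidium sativum, FR14) in a table of 13895 probe sets. The group was set by function, though with earlier results of these data known. It held 54 Arabidopsis loci for photosystem subunits, light-harvesting antenna proteins, electron carriers, the chloroplast ATP synthase and Calvin cycle enzymes. Of these, 33 were in the table, counting 9 of 10 for photosystem II, 9 of 12 for photosystem I, 5 of 13 for light harvesting, 3 of 6 for electron transport, 5 of 11 for the Calvin cycle and 2 of 2 for the ATP synthase. The 21 not analysed here were PSBO1, PSAD1, PSAE1, PSAG, LHCA2, LHCB1.1, LHCB1.3, LHCB2.1, LHCB2.2, LHCB3, LHCB4.1, LHCB6, PETE1, PETE2, FNR2, RBCS1A, RBCS1B, RBCS2B, RBCS3B, PRK and GAPB. The abundant antenna proteins of photosystem II, plastocyanin and the small subunit of Rubisco were therefore not covered. The probes are filed under Arabidopsis codes, so each value describes the cress transcripts that bound the probes of that code, and the roles given are those known from Arabidopsis.

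Photosystem II draws electrons from water, a cytochrome complex and plastocyanin carry them on, and photosystem I hands them to ferredoxin, which a reductase uses to make NADPH. The proton gradient that builds up drives the ATP synthase, and the Calvin cycle spends the ATP and NADPH to fix carbon. Embryos of the cabbage family green while the seed forms and lose much of this apparatus as it dries, and the cotyledons, the first leaf-like organs, rebuild it after germination.

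RNA was measured on 107 single-colour Affymetrix arrays in 27 groups, 26 with 4 arrays and 1 with 3. Seeds were sown on wet filter discs at 24 °C in continuous light and cut into 4 tissues, each sample pooling 100 organs or 50 cotyledons. The micropylar endosperm, which covers the root tip, and the radicle with the lower hypocotyl were sampled at 1, 3, 5, 7, 10, 13 and 16 h, with seeds of intact and of ruptured testa (seed coat) kept apart at 7 h and seeds of intact and of ruptured endosperm kept apart at 16 h. The non-micropylar endosperm and the cotyledons were sampled at 3, 7 and 13 h, those at 7 h from seeds with an intact testa. Dry seeds were taken whole, as a radicle part that kept its endosperm, and as a part that held the non-micropylar endosperm and some of the cotyledons. That last group, called the dry cotyledon part here, was a mixed tissue with 3 arrays. The labels name no genotype beyond FR14 and no treatment. The labels do not say that the arrays of a group came from separate sowings, so the p-values cover no more than the spread among these arrays, which may be technical.

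Values are log2 intensities with array medians from 4.04 to 4.17, and a difference of 1 is a doubling. Group means were called dim under 3.59, which 25% of all means (probe sets by groups) lie below. The limit is set by that share and is not a measured detection floor, and single values went down to 2.54. A difference from or to a dim mean may be understated, so it is given as "at least". Where both means were dim this is said. Tests come from limma, fitted once to all 13895 probe sets, with Benjamini-Hochberg adjusted p under 0.05 as the threshold. Errors of differences are limma's standard errors. The fit holds 1 estimate of spread per probe set, shared by all 27 groups. Where the arrays of a group spread more widely, as those of cotyledons at 13 h did for some members, the errors and p-values are too small. Every comparison of tissues is of bulk RNA, in which fewer cells of a type and less RNA per cell cannot be told apart. The number of arrays limits the precision.

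Arrays of a group correlated with r from 0.894 to 0.990 over all probe sets. Replicate 2 of the cotyledons at 13 h stood furthest from its group, with a mean r of 0.913. Its summed intensity over 8 cotyledon and shoot markers was 283, against 427 to 535 on the other 3 arrays. Among these markers AS1 was lower there, at 6.68 against 7.90 to 8.47, while FIL was not, at 6.32 against 6.28 to 6.81. Counts of members that rest on that group, and the values that moved most with it, are given with and without that array. Replicate 4 of the non-micropylar endosperm at 13 h had a cotyledon marker sum of 265, against 130 to 147 on its other arrays, while the summed endosperm markers of that group were at 892 to 1648 and those of the cotyledons at 13 h were at 47 to 68.

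Dry seeds and cotyledons held the highest group mean of most members. Of 33 members, 15 (45.5%) had their highest group mean in a dry group and 10 (30.3%) in cotyledons, against 17.9% and 9.79% of all probe sets. The radicle held the highest mean of 6 members, and each endosperm that of 1. The micropylar endosperm held the lowest mean of 23 members (69.7%), against 35.1% of all probe sets. The median over the members was 4.60 ± 0.12 (SD, n = 4 arrays) in whole dry seeds, 4.42 in the dry cotyledon part and 4.01 in the dry radicle part. It was 3.97 in the micropylar endosperm and 3.85 in the radicle at 1 h. In cotyledons that median was 4.32 at 3 h, 3.93 at 7 h and 4.13 at 13 h. It was lowest at 7 h in the radicle of intact seeds, at 3.58, in the micropylar endosperm, at 3.50, and in the non-micropylar endosperm, at 3.53. Many members were dim there: 4 of 33 lay under the limit in whole dry seeds, 18 in the non-micropylar endosperm at 7 h and 19 in the micropylar endosperm at 7 h after testa rupture, while 12 members were above it in every group and none was below it in all.

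**Figure D1:**
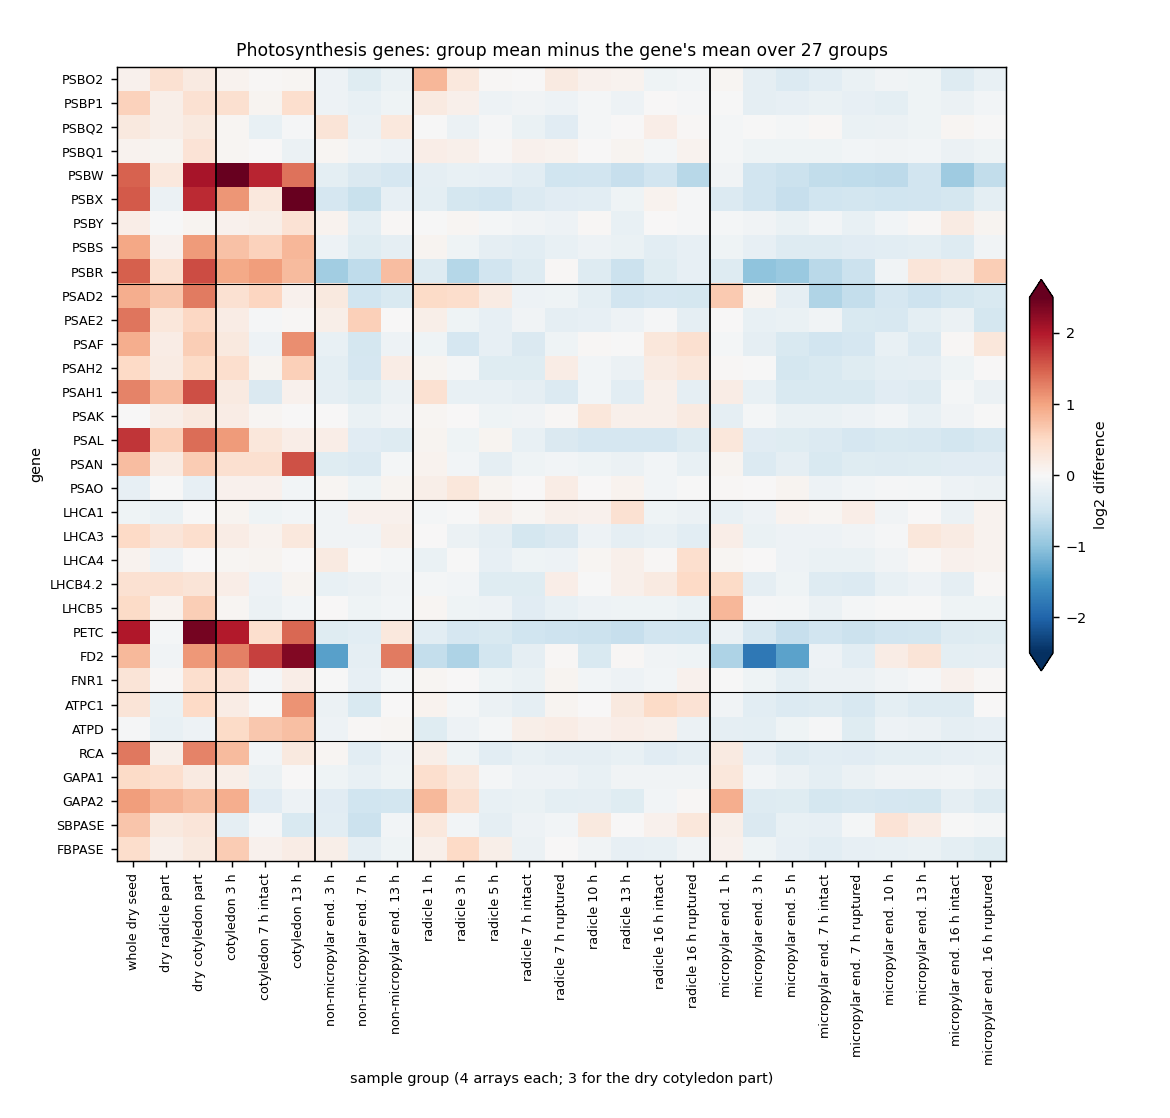
Group means of the 33 members (rows, ordered by role) in the 27 groups (columns), as the log2 difference from each gene's mean over all groups; the colour scale ends at 2.5 in either direction. FD2, PSBW, PSBX, PETC and PSBR carry most of the colour, above their own mean in the cotyledon columns, while PSBQ1, PSAO, PSAK and LHCA1 stay close to theirs.

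The members did not share a single pattern. The range over the 27 group means had a median of 1.19 for the members and 1.19 for all probe sets. It was widest for the leaf-type ferredoxin FD2 (AT1G60950), at 4.10, followed by 3.42 for PSBW (AT2G30570) and 3.20 for PSBX (AT2G06520), both small membrane subunits of photosystem II. PETC (AT4G03280), the Rieske iron-sulfur protein of the cytochrome complex, ranged over 2.97, and PSBR (AT1G79040), a subunit near the oxygen-evolving site, over 2.64. At the other end were PSBQ1 (AT4G21280) of the oxygen-evolving complex at 0.48, PSAO (AT1G08380) and PSAK (AT1G30380) of photosystem I at 0.49 and 0.52, and the photosystem I antenna protein LHCA1 (AT3G54890) at 0.58. Over the 528 pairs of members, Pearson's r across the 27 group means ran from -0.47 to 0.96 with a median of 0.45, and 465 pairs were above 0. The points share arrays and tissues, so this is a description.

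Photosynthesis transcripts were already unequal between the ends of the dry seed. In the dry cotyledon part 12 of 33 members were higher than in the dry radicle part and none was lower, against 5.59% of all probe sets higher and 4.05% lower. They were 4 of 9 members of photosystem II, 2 of 9 of photosystem I, 1 of 5 of light harvesting, 3 of 3 of electron transport, 1 of 5 of the Calvin cycle and 1 of 2 of the ATP synthase. PETC was at 3.65, 3.46, 4.11 and 3.64 in the radicle part and at 6.48, 5.92 and 6.05 in the cotyledon part. The groups were far apart, by 2.44 ± 0.18 (limma, adjusted p = 1.93e-19). PSBX was at 3.77, 3.71, 3.67 and 3.62 against 6.33, 5.08 and 5.70, a difference of 2.01 ± 0.24 (adjusted p = 2.54e-10 in limma). PSBW differed by 1.80, PSBR by 1.27 and FD2 by 1.18, the last with an adjusted p of 0.000371 in limma. The cotyledon part was thus the higher one for each of these 5, although its tissue was mixed with endosperm.

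The earliest wet samples were set against the dry parts, 1 h of imbibition for the radicle and 3 h for the cotyledons, and these steps are not compared with each other. At 1 h 1 member of 33, PSBR, was lower in the radicle than in the dry radicle part, at 4.26 against 4.96, and none was higher (limma, adjusted p = 0.0302; all probe sets 1.51% higher and 1.42% lower), a call lost in 5 of 8 fits that left out an array. In the cotyledons at 3 h 1 member was higher and 6 lower than in the dry cotyledon part, against 7.1% and 8.78% of all probe sets. PSAH1 (AT3G16140), a photosystem I subunit that helps dock the mobile antenna, was at 5.63, 5.28 and 5.48 in the dry part and at 4.10, 3.93, 3.90 and 4.32 at 3 h. All 3 dry arrays lay above all 4 wet ones, and the mean fell by 1.40 ± 0.19 (limma, adjusted p = 2.38e-08). PSAD2 (AT1G03130), the docking site for ferredoxin on photosystem I, fell by 0.92 to 6.64. The others that fell were PSBX, PSBR, LHCB5 (AT4G10340), a minor antenna protein of photosystem II, and RCA (AT2G39730), the activase of Rubisco. PSBX and PSBR each lost their call in 2 of 7 fits that left out an array. ATPD (AT4G09650), the delta subunit of the ATP synthase, rose from 3.94 to 4.55 (limma, adjusted p = 0.00164). The dry radicle part kept endosperm and the dry cotyledon part held endosperm too, so these steps also cross a change of tissue.

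PSBW, PSBR and PSBX of photosystem II, FD2 and PETC were higher in cotyledons than in the radicle, by the most among the members called, at 3 h. In all, at 3 h 12 of 33 members were higher in cotyledons than in the radicle and none was lower, against 7.22% and 5.66% of all probe sets, and the median difference was 0.29 for the members and -0.02 for all probe sets. The members higher were 4 of 9 of photosystem II, 2 of 9 of photosystem I, 0 of 5 of light harvesting, 3 of 3 of electron transport, 2 of 5 of the Calvin cycle and 1 of 2 of the ATP synthase. PSBW was at 4.50, 3.67, 4.40 and 4.05 in the radicle and at 6.13, 7.68, 6.55 and 7.17 in the cotyledons. The lowest cotyledon array lay far above the highest radicle array, and the means differed by 2.73 ± 0.22 (limma, adjusted p = 1.88e-17). FD2 was at 7.56, 6.72, 6.88 and 7.01 in the radicle and 8.93, 9.30, 9.09 and 8.99 in the cotyledons, higher by 2.03 ± 0.23 (limma, adjusted p = 2.24e-11). PETC was higher by at least 2.39, PSBR by 1.65 and PSBX by at least 1.53. Among members of smaller range, FNR1 (AT5G66190), the reductase that makes NADPH, was higher by 0.33 and ATPD by 0.60.

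At 13 h, as at 3 h, every member called with all arrays was higher in cotyledons than in the radicle. The counts at these times are not a test of change, which is given further below. There 18 of 33 members were higher in cotyledons and none was lower, against 15.6% and 15.7% of all probe sets, with a median difference of 0.42 for the members and 0.02 for all. Photosystem II counted 6 of 9, photosystem I 5 of 9, light harvesting 1 of 5, electron transport 3 of 3, the Calvin cycle 1 of 5 and the ATP synthase 2 of 2. PSBX was at 3.84, 3.75, 3.75 and 3.62 in the radicle and at 5.34, 7.82, 6.26 and 6.46 in the cotyledons. The groups did not overlap, though the cotyledon arrays spread widely, and the difference was 2.73 ± 0.22 (limma, adjusted p = 7.07e-19). FD2 was higher by 2.29, PETC by at least 2.01 and PSBW by 1.94. PSAN (AT5G64040), a subunit on the inner side of photosystem I, was at 3.43, 3.33, 2.99 and 3.22 in the radicle and 3.75, 6.88, 4.68 and 4.62 in the cotyledons. Its difference of at least 1.74 ± 0.24 (limma, adjusted p = 2.98e-09) leaned on replicate 2. Without that array PSAN differed by 1.11 and PSBX by 2.28, 15 members were higher and 2 lower (LHCA1 by -0.58 and SBPASE by -0.52), and PSAD2, FNR1 and RCA no longer passed.

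**Figure D2:**
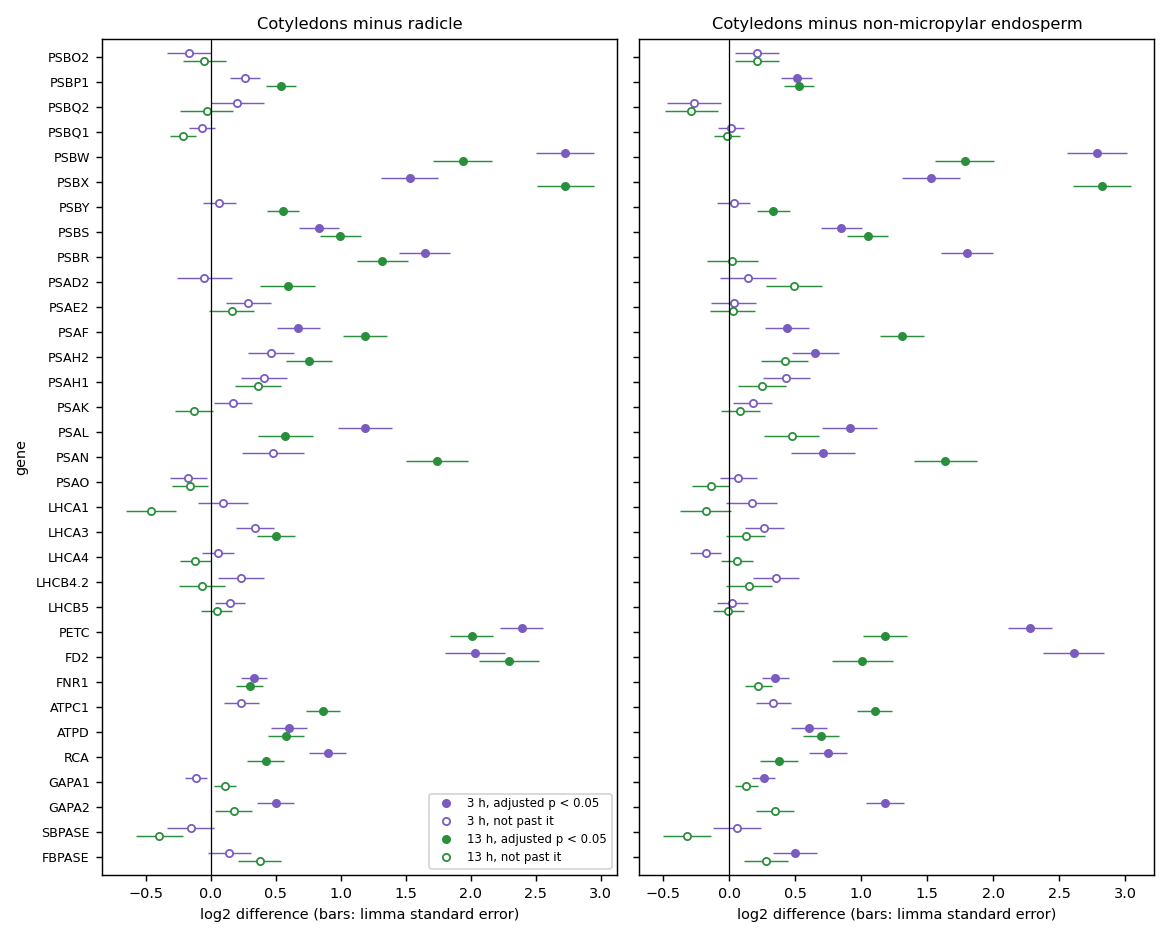
Difference in log2 intensity for each of the 33 members, cotyledons minus radicle and cotyledons minus non-micropylar endosperm, at 3 h and 13 h, with limma's standard error as bars; filled points passed an adjusted p of 0.05. All filled points lie to the right of 0, with PSBW, PETC, FD2 and PSBX the furthest out.

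Against the non-micropylar endosperm, its neighbour inside the seed, the cotyledons were higher in 17 of 33 members at 3 h and lower in none, where 13.8% and 13.1% of all probe sets were. The set held 4 of 5 Calvin cycle members but again 0 of 5 of light harvesting. PSBW was at 4.25, 4.24, 3.87 and 4.02 in that endosperm, below every cotyledon array, and differed by 2.79 (limma, adjusted p = 1.59e-18). FD2 was at 7.12, 5.65, 6.18 and 6.93, which also left a wide gap to the cotyledons, of 2.61 ± 0.23 (limma, adjusted p = 1.45e-16). PETC was higher in cotyledons by at least 2.28, PSBR by 1.80 and PSBX by at least 1.53. At 13 h 12 members were higher and none lower, against 13.4% and 11.5% of all probe sets. PSBX then differed by 2.83, PSBW by 1.78, PSAN by at least 1.64, PETC by 1.18, and PSAF (AT1G31330), where plastocyanin docks on photosystem I, by 1.31. FD2 was closer, at 9.13 against 10.14 (limma, adjusted p = 0.000337), and PSBR, at 5.35 against 5.37, was not called. Without replicate 2 of the cotyledons at 13 h 10 members were higher, and PSAN differed by 1.00.

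**Figure D3:**
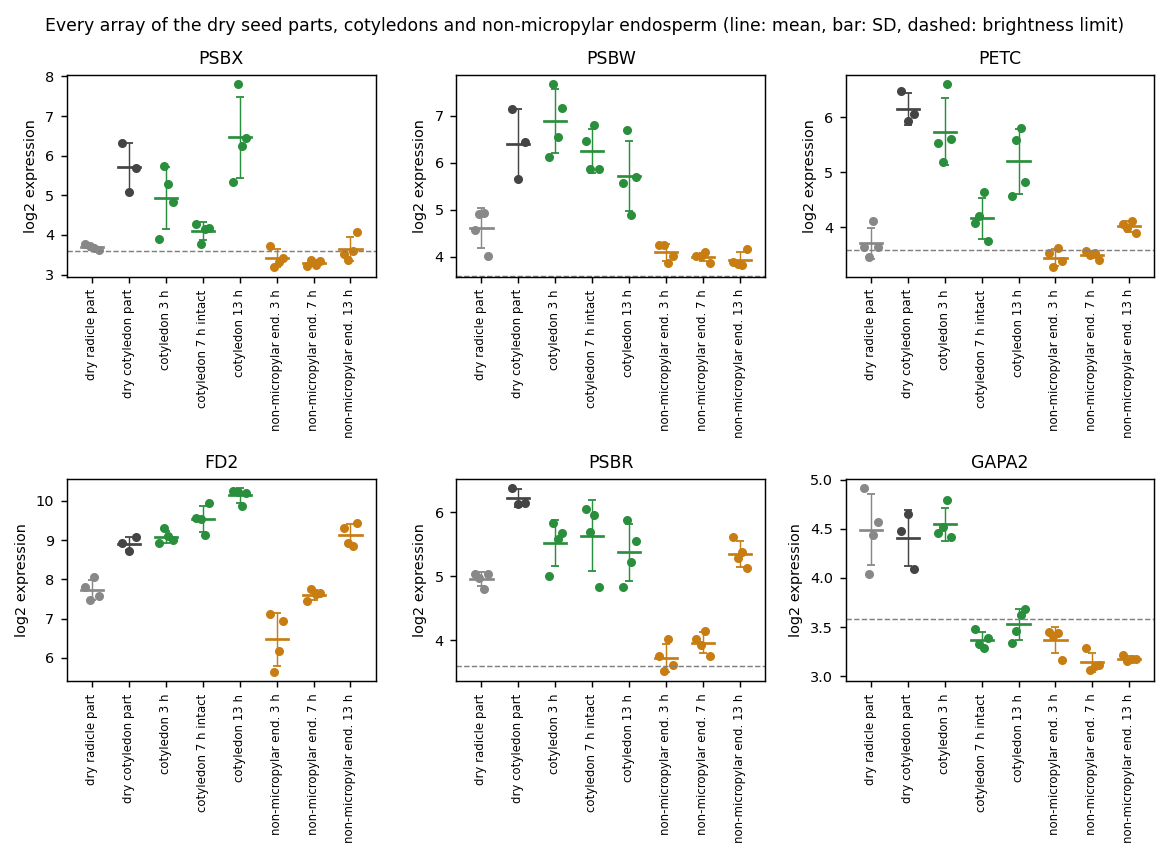
Log2 intensity of PSBX, PSBW, PETC, FD2, PSBR and GAPA2 on every array of the dry parts, the cotyledons and the non-micropylar endosperm, with the group mean (line), the SD (bar) and the brightness limit of 3.59 (dashed). PSBX rises from 4.10 at 7 h to 6.47 at 13 h in cotyledons with a wide spread, while PSBR and FD2 climb in the endosperm to 5.35 and 9.13.

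Within the cotyledons PETC and PSBX fell and then rose again, GAPA2 and RCA fell in the first step, and PSAF and ATPC1 rose in the second. From 3 h to 7 h 10 of 33 members fell and none rose, against 6.97% of all probe sets lower and 6.61% higher. They were 4 of 5 of the Calvin cycle, 2 of 3 of electron transport, 2 of 9 of each photosystem, and none of light harvesting or the ATP synthase. PETC was at 5.54, 5.19, 6.61 and 5.60 at 3 h and at 4.08, 4.21, 4.65 and 3.75 at 7 h. The times were fully separated, and the mean fell by 1.56 ± 0.17 (limma, adjusted p = 3.11e-12). GAPA2 (AT1G12900), a subunit of the plastid glyceraldehyde-phosphate dehydrogenase, went from 4.46, 4.52, 4.79 and 4.41 to 3.48, 3.33, 3.28 and 3.38, again with no overlap (at least 1.18 lower, limma adjusted p = 4.87e-10). RCA was at 4.31, 3.97, 4.91 and 4.22 and then at 3.65, 3.45, 3.45 and 3.42, lower by at least 0.86 (limma, adjusted p = 2.57e-06). PSBX fell by 0.84 to 4.10, and PSAL (AT4G12800), a photosystem I subunit, fell by 0.79 to 3.69. Both had overlapping groups: PSAL was at 3.87, 4.68, 5.17 and 4.25 and then at 4.33, 3.62, 3.48 and 3.35. Without replicate 2 of the cotyledons at 3 h the change of PSBX was -0.58, and without replicate 3 that of PSAL was -0.57, neither past the threshold. The other 5 that fell were PSBW, PSAH1, FBPASE (AT3G54050), a phosphatase of the cycle, FNR1 and GAPA1 (AT3G26650). PSBW fell by 0.63 and FNR1 fell by 0.38, PSAH1 was lower by at least 0.59, and GAPA1 had both means dim. FD2 moved the other way in value, from 9.08 to 9.54, without passing.

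From 7 h to 13 h 7 members rose in the cotyledons and none fell, against 9.02% and 8.18% of all probe sets. They were photosystem and electron transport genes and 1 ATP synthase gene, with 0 of 5 of the Calvin cycle and 0 of 5 of light harvesting. PSBX went from 4.29, 3.78, 4.16 and 4.17 to the 13 h values above, higher by 2.37 ± 0.22 (limma, adjusted p = 8.16e-15). PSAF was tightly grouped at 3.98, 4.01, 3.98 and 4.01 at 7 h and then at 4.96, 5.83, 5.24 and 5.13. It rose by 1.29 ± 0.17 (limma, adjusted p = 2.44e-09). ATPC1 (AT4G04640), the gamma subunit that turns inside the ATP synthase, went from 4.23, 3.88, 4.31 and 4.29 to 5.43, 5.79, 5.12 and 4.90. It also did not overlap between the times, and rose by 1.13 ± 0.13 (limma, adjusted p = 1.28e-10). PETC rose by 1.03 to 5.20, still under its 5.74 of 3 h, and PSAN rose by 1.19 to 4.98. PSAH2 (AT1G52230), a close copy of PSAH1, rose by 0.54, and PSBP1 (AT1G06680) of the oxygen-evolving complex passed with both means dim. Without replicate 2, PSBX rose by 1.92, PSAF by 1.11, ATPC1 by 0.97, PETC by 0.90 and PSAN by 0.56, PSAH2 was not past the threshold, and PSBW was lower by -0.86. Of 8 cotyledon and shoot markers 2 rose in the same step, AS1 by 1.57 and FIL, a regulator of leaf polarity, by 0.79. Their sum over the list went from 196 to 244 at 7 h to 283 to 535 at 13 h, and their part in the members' rise was not tested.

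**Figure D4:**
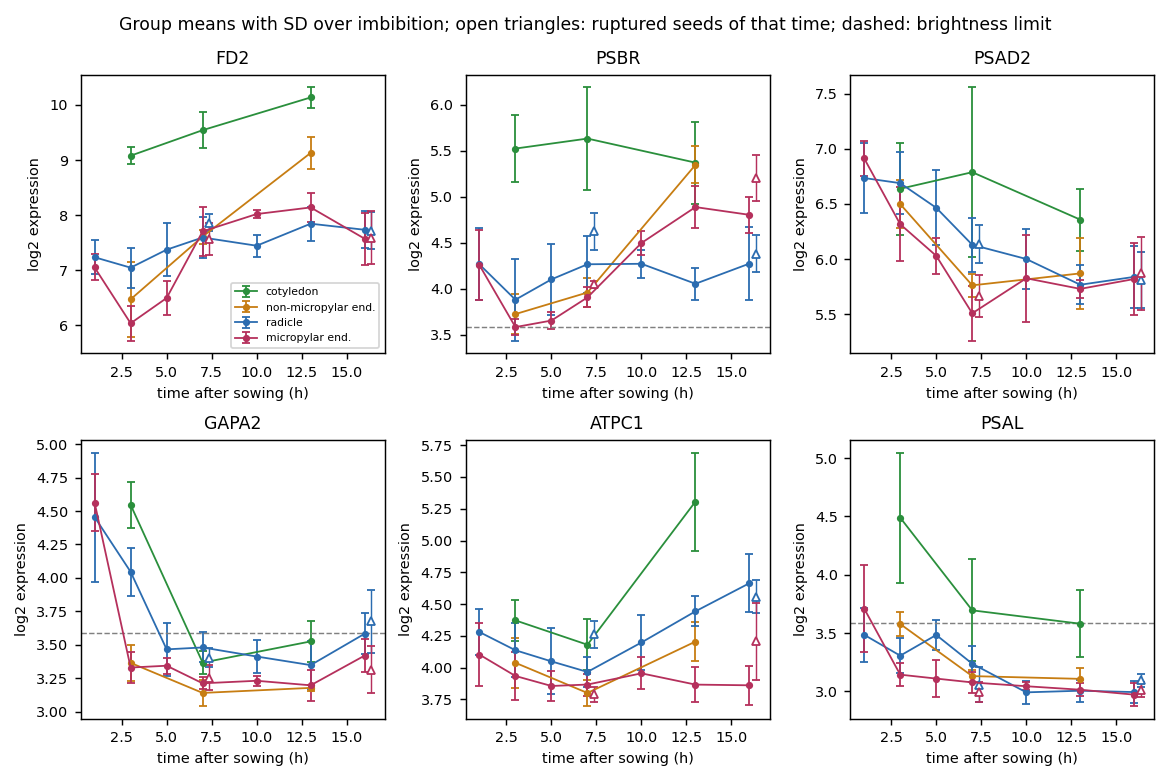
Mean log2 intensity ± SD of FD2, PSBR, PSAD2, GAPA2, ATPC1 and PSAL against hours after sowing in the 4 tissues; open triangles mark seeds with a ruptured testa (7 h) or endosperm (16 h). FD2 is highest in cotyledons at every shared time, PSBR of the non-micropylar endosperm reaches the cotyledon level by 13 h (5.35 and 5.37), and GAPA2 is lower at 7 h than at the earliest time in cotyledons, radicle and micropylar endosperm.

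In the non-micropylar endosperm FD2 rose in both steps and PSBR in the second. From 3 h to 7 h 2 members rose and 2 fell, against 16% and 15.9% of all probe sets. FD2 rose from 6.47 to 7.61, by 1.14 ± 0.23 (limma, adjusted p = 3.59e-05), and PSAE2 (AT2G20260), which like PSAD2 helps bind ferredoxin, rose by 0.44. PSAD2 fell by 0.74 to 5.76 and PSBY (AT1G67740), a small photosystem II subunit, passed in the same direction with both means dim. PSAE2 and PSBY each lost their call in 5 of 8 fits that left out an array. From 7 h to 13 h 6 members rose and 1 fell, against 10.3% and 11.9% of all probe sets. FD2 went from 7.44, 7.74, 7.62 and 7.64 to 9.31, 8.92, 8.85 and 9.43. PSBR went from 4.01, 3.92, 4.14 and 3.75 to 5.61, 5.28, 5.37 and 5.13. Neither overlapped between the times: FD2 rose by 1.52 ± 0.23 (limma, adjusted p = 1.18e-07) and PSBR by 1.39 ± 0.20 (adjusted p = 1.65e-08). PETC moved from 3.57, 3.49, 3.54 and 3.42 to 4.06, 4.00, 4.12 and 3.90, a rise of at least 0.51. The remaining risers were PSAH2, SBPASE (AT3G55800), a phosphatase of the Calvin cycle, and ATPC1, by 0.60 or less, and PSAE2 fell by 0.58. SBPASE lost its call in 5 of 8 fits that left out an array.

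A cotyledon marker moved beside these rises. Of 8 cotyledon and shoot markers 1 rose, the leaf regulator AS1, which went from 4.26 to 6.12 and was at 5.39, 5.65, 5.97 and 7.47 on the 4 arrays at 13 h, while FIL was at 3.41, 3.34, 3.58 and 4.36 there against a mean of 6.48 in cotyledons at 13 h. Without replicate 4 of that group FD2 rose by 1.42 and PSBR by 1.46, and 5 members rose and none fell. Any further part of cotyledon tissue in the result was not tested.

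In the micropylar endosperm PSAD2, GAPA2 and antenna genes fell over the first 7 h. From 1 h to 7 h with an intact testa 10 of 33 members fell and 1 rose, against 21.5% and 16.7% of all probe sets. PSAD2 went from 6.94, 7.12, 6.77 and 6.82 to 5.14, 5.69, 5.58 and 5.62, and the mean fell by 1.41 ± 0.21 (limma, adjusted p = 4.81e-08). GAPA2 went from 4.54, 4.59, 4.30 and 4.82 to 3.16, 3.20, 3.24 and 3.26, lower by at least 1.35 ± 0.14 (limma, adjusted p = 3.25e-13). In both genes the 2 times were far apart on every array. LHCB5 went from 4.15, 4.72, 4.26 and 4.74 to 3.70, 3.20, 3.55 and 3.51, at least 0.98 lower (limma, adjusted p = 1.89e-11), and the related antenna gene LHCB4.2 (AT3G08940) was lower by at least 0.81. PSAL was lower by at least 0.63. FD2 was the member that rose, from 6.70, 7.18, 7.10 and 7.21 to 7.85, 8.18, 7.11 and 7.68, with 1 array at 7 h inside the 1 h range, by 0.66 ± 0.23 (limma, adjusted p = 0.0176). Without replicate 1 of the 1 h group, 7 members fell and FD2 did not pass. From 7 h with a ruptured testa to 16 h with an intact endosperm 2 members rose and none fell, against 8.32% and 7.6% of all probe sets. PSBR rose from 4.05 to 4.80, at 4.81, 4.85, 5.01 and 4.54 on the 16 h arrays (limma, adjusted p = 0.00293), and PSBY passed too, with both means dim. In that step 2 of 4 endosperm markers fell, EPR1 by 1.25 and MAN7 by 0.46, and 1 of 8 cotyledon and shoot markers, TCP10, rose by at least 0.79. The summed endosperm markers ranged from 713 to 1122 before and 436 to 1320 after, and the cotyledon markers from 124 to 131 and 125 to 152. The part of these markers in the rise of PSBR was not tested.

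In the radicle GAPA2, GAPA1 and the water-splitting subunit PSBO2 were among the members that declined early. From 1 h to 7 h with an intact testa 8 members fell and 1 rose, against 23% and 16.6% of all probe sets, so the share that fell was close to the background. GAPA2 went from 4.27, 4.17, 5.17 and 4.21 to 3.63, 3.45, 3.36 and 3.49, at least 0.97 lower (limma, adjusted p = 2.9e-08). PSBO2 (AT3G50820), which shields the manganese cluster that splits water, fell from 5.22 to 4.40 (limma, adjusted p = 3.04e-05). PSAH1 and PSAD2 were each lower by 0.61, the first to near the limit, and GAPA1 by at least 0.55. PSAD2 lost its call in 2 of 8 fits that left out an array. GAPA1 was at 3.70, 3.85, 3.81 and 3.92 at 1 h and 3.12, 3.29, 3.33 and 3.36 at 7 h, with no overlap. ATPD rose from 3.69, 3.90, 3.72 and 3.75 to 4.13, 4.22, 4.30 and 4.21, also without overlap, by 0.45 ± 0.14 (limma, adjusted p = 0.00586). From 7 h with a ruptured testa to 16 h with an intact endosperm only ATPC1 passed, rising from 4.26 to 4.66 (limma, adjusted p = 0.0325), against 6.84% of all probe sets higher and 5.02% lower. That call was lost without any of 4 arrays: replicate 1 or 2 of the radicle at 7 h with a ruptured testa, or replicate 1 or 4 at 16 h. Of 8 cotyledon and shoot markers 2 rose beside it, AS1 by 0.73 and KAN1 by at least 0.37. Their summed level went from 138 to 163 up to 175 to 199, and 1 of 8 root markers, PLT2, rose by 0.59; their part in the rise of ATPC1, which was higher in cotyledons at 13 h, was not tested.

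Few probe sets of any kind were called at rupture of the covering layers, and few members or none. At testa rupture limma called none of the 33 in the micropylar endosperm and none in the radicle, against 6.33% and 1.71% of all probe sets in either direction. At an unadjusted p under 0.05 in limma the counts were 0 in the endosperm and 4 (12.1%) in the radicle. The shares of all probe sets were 16.2% and 12.6%. At endosperm rupture limma called none in the micropylar endosperm, where 4.3% of all probe sets passed. There 2 members (6.06%) had an unadjusted p under 0.05, against 13.2% of all probe sets. In the radicle the photosystem I antenna gene LHCA4 (AT3G47470) was higher after endosperm rupture by at least 0.40 ± 0.12 (limma, adjusted p = 0.028), and no member was lower, against 3.57% and 1.87% of all probe sets. That call was lost without replicate 2 or 4 of the radicle at 16 h, in intact as in ruptured seeds.

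Fewer members were called between the radicle and the micropylar endosperm, and between the endosperm regions. At 3 h 6 members were higher in the radicle than in the micropylar endosperm and none was lower, against 14.4% and 13.9% of all probe sets. FD2 was at 6.09, 5.81, 5.79 and 6.46 in that endosperm, below every radicle array, and differed by 1.01 (limma, adjusted p = 0.00031). GAPA2 was higher in the radicle by at least 0.71, FBPASE by at least 0.60 and PSBO2 by 0.49. PSBO2 lost its call in 3 of 8 fits that left out an array. At 13 h 1 member was higher and 2 were lower in the radicle, against 14.9% and 12.8% of all probe sets. ATPC1 was higher by 0.58 ± 0.13. PSBR was at 4.89, 4.67, 4.79 and 5.20 in the micropylar endosperm and 4.23, 3.83, 4.14 and 4.02 in the radicle, so the radicle was lower on every array (-0.84 ± 0.20, limma adjusted p = 0.0004), and LHCA3 (AT1G61520) differed by -0.50. Between the endosperm regions at 3 h limma called no member, against 5.6% of all probe sets. At an unadjusted p under 0.05 there were 2 members (6.06%), against 16.1% of all probe sets. At 13 h FD2 and PETC were higher in the non-micropylar region, by 0.99 and at least 0.72 (limma, adjusted p = 0.00111 for each), and no member was lower, against 5.06% and 6.05% of all probe sets.

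The change from 3 h to 13 h was compared between tissues directly. Each test takes the change in the named tissue minus that in its partner. Some arrays enter several of them, so the results are not set against each other. A change from or to a dim mean may be understated, so a difference between 2 changes can be too small or too large. Against the radicle 4 members rose more in cotyledons and none less, where 6.66% and 7.31% of all probe sets did: PSAN by 1.27 ± 0.34, PSBX by 1.20 ± 0.31, ATPC1 by 0.63 ± 0.19 and PSBY by 0.49 ± 0.18 (limma, adjusted p = 0.00514, 0.00358, 0.0137 and 0.0474), PSBY being lost in 10 of 16 fits that left out an array. PSBX went from 4.94 to 6.47 in cotyledons and from 3.41 to 3.74 in the radicle. Without replicate 2 of the cotyledons at 13 h none of the 4 passed, at 0.63 for PSAN and 0.75 for PSBX, with adjusted p of 0.0906 and 0.0555 in limma, while PSBW and RCA passed in the other direction, at -1.12 and -0.61.

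Against the non-micropylar endosperm 4 members rose more in cotyledons and 5 rose more, or fell less, in the endosperm, where 8.65% and 6.93% of all probe sets did. PSBR was level in cotyledons, at 5.53 and 5.37, and went from 3.72 to 5.35 in the endosperm, a difference in change of -1.78. FD2 gained 1.06 in cotyledons, and its gain was larger in the endosperm (-1.60). PETC, PSBW and GAPA2 differed by -1.10, -1.004 and -0.83. GAPA2 was dim in the endosperm at both times, at 3.37 and 3.18, so its fall there may be understated. In the other direction were PSBX by 1.299, PSAN by 0.93, PSAF by 0.87 and ATPC1 by 0.77; without replicate 2 PSBX was at 0.85, PSAF at 0.69 and ATPC1 at 0.61, all still past the threshold, and PSAN was at 0.29 (limma, adjusted p = 0.51). PSBW was lost in 3 of 16 fits that left out an array and PSAN in 11. Between radicle and micropylar endosperm 5 members gained less, or fell more, in the radicle and none gained more, against 7.97% and 8.82% of all probe sets. They were FD2 by -1.31, PSBR by -1.13, FBPASE by -0.63, GAPA2 by -0.56 and GAPA1 by -0.34 (limma, adjusted p from 0.00168 to 0.048). FBPASE, GAPA2 and GAPA1 were dim in the micropylar endosperm at both times, so a fall there may be understated. FBPASE and GAPA1 each lost their call in 12 of 16 fits that left out an array and GAPA2 in 9, and FBPASE also with the replicate block (limma, adjusted p = 0.0507). Between the endosperm regions limma called none, against 8.39% of all probe sets. At an unadjusted p under 0.05 there were 2 members (6.06%), against 20.7% of all probe sets.

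**Figure D5:**
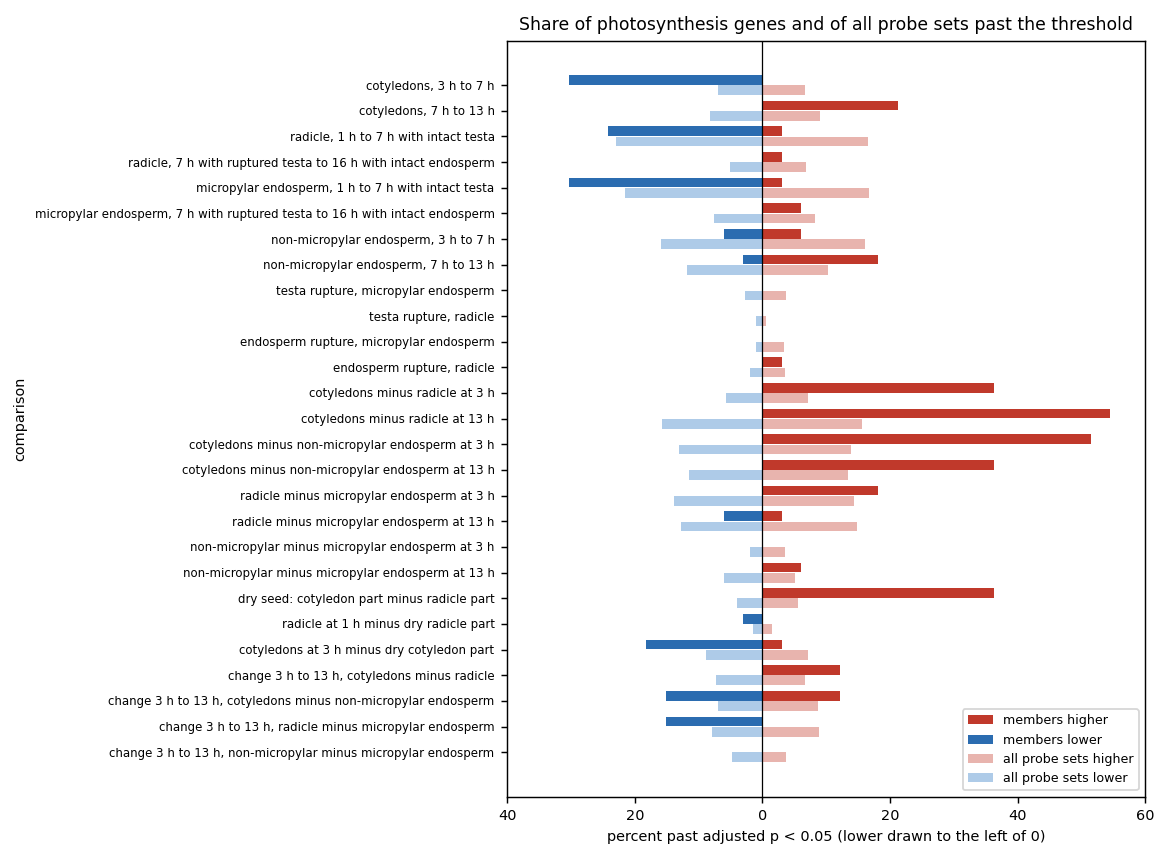
Percent of the 33 members and of all 13895 probe sets that were higher or lower at an adjusted p of 0.05 in limma, in each of the 27 comparisons. Where cotyledons are set against another tissue the members higher exceed the background, as with 12 of 33 against 7.22% at 3 h versus the radicle, and at testa rupture no member is called.

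Some members never passed the threshold with all arrays. PSBQ2 (AT4G05180) and PSBQ1 of the oxygen-evolving complex, PSAK, PSAO and LHCA1 did so in 0 of the 27 comparisons, and the other 28 members passed in at least 1. PSBQ1 was at 3.29, 3.44, 3.47 and 3.32 in whole dry seeds and at 3.16, 3.24, 3.20 and 3.03 in cotyledons at 13 h. All were under the limit, so a difference between them may be understated. LHCA1 was above it throughout, at 4.53, 4.48, 4.05 and 4.26 in dry seeds, 4.64, 4.70, 4.23 and 3.84 in cotyledons at 13 h and 4.57, 4.44, 5.34 and 4.91 in the radicle at 13 h. Those groups overlapped. PSAO was at 3.48, 3.28, 3.28 and 3.30 in cotyledons at 13 h and 3.47, 3.62, 3.40 and 3.49 in the radicle, again overlapping and dim. The median r of LHCA1 with the other members over the group means was -0.24 and that of PSAO -0.17, against 0.70 for PSBP1 and RCA and 0.67 for PETC, as a description over arrays that all members share.

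Other genes of the chloroplast were counted in lists that hold no member. The background in cotyledons was 6.61% of all probe sets higher and 6.97% lower from 3 h to 7 h, and 9.02% and 8.18% from 7 h to 13 h. Of 17 genes of chlorophyll synthesis 0 rose and 2 fell in cotyledons from 3 h to 7 h, and 11 rose and 0 fell from 7 h to 13 h. CHLM, which methylates the magnesium porphyrin, rose then from 4.55 to 6.59, CHLP, which makes the phytyl tail, from 4.75 to 6.73, and CHLI1, a subunit of the magnesium chelatase, by 1.46. Carotenoid synthesis counted 3 of 8 higher in that step, among them the de-epoxidase VDE by 1.31. Thylakoid import and assembly counted 4 of 12 lower from 3 h to 7 h and 4 of 12 higher from 7 h to 13 h, with the signal-recognition protein CPSRP54 up by at least 0.95. The Calvin cycle genes outside the member list counted 6 of 11 lower and 1 higher in the first step, led by the aldolase FBA1, which fell by 1.63, and 4 of 11 higher and 1 lower in the second. Photorespiration counted 3 of 7 lower and then 3 of 7 higher. Without replicate 2 of the cotyledons at 13 h the second step counted 10 of 17 for chlorophyll synthesis, 4 of 8 for carotenoid synthesis, with VDE at 1.75, 7 of 12 for import and assembly, 4 of 11 for the other Calvin cycle genes and 3 of 7 for photorespiration, with none lower in these lists.

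Of 20 light and greening regulators, 3 rose and 1 fell in cotyledons from 3 h to 7 h: the bZIP factor HYH went from 3.36 to 6.19, its relative HY5 from 6.47 to 8.02, and the sigma factor SIG5 rose by 1.21. From 7 h to 13 h 1 rose and 3 fell, with SIG5 falling by 1.32 and HY5 falling by 1.31. The early light-induced protein ELIP1, which binds free pigment under stress, went from 7.27 to 8.74 and then to 5.67; of its list of 9, 1 rose and 1 fell in the first step and 0 rose and 3 fell in the second. Against the radicle at 13 h, cotyledons were higher in 8 of 17 genes of chlorophyll synthesis, 6 of 8 of carotenoid synthesis, 6 of 12 of import and assembly and 10 of 20 regulators, and lower in none of these, against 15.6% of all probe sets higher and 15.7% lower. Without replicate 2 these counts were 9, 6, 7 and 10. CHLP led the first with 2.64, VDE the second with 2.01, the insertase ALB3 the third with 2.24 and SIG6 the fourth with at least 1.92. Other lists went both ways there. The Calvin cycle genes outside the member list counted 5 of 11 higher and 1 lower, and photorespiration 3 of 7 higher and 2 lower. The list of ELIP1 counted 5 of 9 higher and 0 lower. Without replicate 2 these were 4 and 0, 2 and 1, and 4 and 0. In the non-micropylar endosperm from 7 h to 13 h 3 of 17 genes of chlorophyll synthesis rose and none fell, among them CHLM from 3.94 to 5.78, against 10.3% and 11.9% of all probe sets, beside the rises of FD2 and PSBR.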

How the data were processed

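The deposited values are log2 intensities, made by the authors from the scanner files with RMA (affy), per the submitters' processing notes; versions are not given in the sources used here. RMA quantile-normalizes all arrays together, so a shift common to most genes is removed. Columns were matched to samples by title. One limma fit (limma 3.58.1, R 4.3.3) had a mean per group and 27 contrasts, with 80 residual and 6.04 prior degrees of freedom and Benjamini-Hochberg adjustment over 13895 probe sets. It was also run on simulated data with independent noise and planted changes, which cannot test the effect of dim values or of an odd array. Members were matched by locus; symbols came from lists written by hand. The members and lists were chosen with earlier results of these data known. Named were, per role, the members of widest and narrowest range, per comparison up to 5 members each way, and up to 3 genes per list; others were chosen after their values were seen. Alternatives were centring each array on its brighter probe sets, quantile normalization again, a filter on dim probe sets, only the arrays compared, a trended robust fit, the replicate number as a block, and leaving out each array. Replicate numbers were not taken as pairs: in 0 of 27 comparisons did the deviations of every pair correlate over 0.1 (median r -0.000425). In cotyledons minus non-micropylar endosperm at 13 h, 3 of 4 pairs did. For differences in change, only the times of the first tissue were checked against each other, so the check does not settle pairing. No sequence was used.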

Additional observations from a re-analysis of the deposited data

Results flagged for a closer look

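Dixon's ratio was used to test the most extreme array within groups of 4 arrays. It was run on the members of widest and narrowest range in each role and on the median over the members. The other members were not screened. Of 338 tests 22 passed, where chance gives about 1 in 20 (16.9). They were spread over tissues and genes. For photosystem II these were PSBQ1 at 3.12 in replicate 1 of the radicle at 5 h and PSBW at 4.17 in replicate 4 of the non-micropylar endosperm at 13 h. For photosystem I, PSAL was at 2.92 in replicate 4 of the micropylar endosperm at 16 h after rupture, and PSAO stood apart in cotyledons at 3 h (4.05, replicate 4) and 13 h (3.48, replicate 1) and in the non-micropylar endosperm at 7 h (3.26, replicate 2) and 13 h (3.77, replicate 2). LHCA1 was at 4.78 in replicate 1 of the radicle at 7 h with an intact testa and at 5.17 in replicate 2 of the non-micropylar endosperm at 13 h. LHCB5 was at 3.74 in replicate 1 of the radicle at 3 h, 3.78 in replicate 1 of the micropylar endosperm at 10 h and 3.69 in replicate 3 of the radicle at 16 h with an intact endosperm. FD2 was at 9.86 in replicate 3 of the cotyledons at 13 h. RCA was at 3.32 in replicate 4 of the micropylar endosperm at 5 h, 3.65 in replicate 1 of the cotyledons at 7 h, 3.25 in replicate 4 of the radicle at 16 h after rupture and 3.62 in replicate 4 of the non-micropylar endosperm at 13 h. GAPA1 was at 3.42 in replicate 1 of the micropylar endosperm at 5 h and 3.70 in replicate 2 of the cotyledons at 13 h, and ATPC1 at 3.63 in replicate 1 of the micropylar endosperm at 16 h with an intact endosperm. The median over the 33 members was apart in replicate 1 of the cotyledons at 3 h (4.12) and replicate 2 of the micropylar endosperm at 10 h (3.43).

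The change from 3 h to 13 h differed between tissues by limma's test of the difference itself in 18 cases. Cotyledons minus radicle gave PSBX 1.20, PSBY 0.49, PSAN 1.27 and ATPC1 0.63. Cotyledons minus non-micropylar endosperm gave PSBX 1.299, PSAN 0.93, PSAF 0.87 and ATPC1 0.77 in one direction, and PSBR -1.78, FD2 -1.60, PETC -1.10, PSBW -1.004 and GAPA2 -0.83 in the other. Radicle minus micropylar endosperm gave FD2 -1.31, PSBR -1.13, FBPASE -0.63, GAPA2 -0.56 and GAPA1 -0.34.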

How the results depend on the processing

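No change of a named member turned its direction under any alternative; over 96 named changes, 1333 alternative values kept their call and 144 lost it. Fitted to the arrays compared alone, the members called went from 10 to 4 (cotyledons 3 to 7 h), 7 to 3 (cotyledons 7 to 13 h), 1 to 0 (radicle 7 to 16 h), 2 to 1 (micropylar endosperm 7 to 16 h), 1 to 0 (endosperm rupture, radicle), 3 to 5 (radicle minus micropylar endosperm, 13 h), 0 to 1 (endosperm regions, 3 h), 1 to 0 (radicle at 1 h minus dry), 7 to 2 (cotyledons at 3 h minus dry) and, for differences in change, 4 to 0 (cotyledons, radicle), 9 to 4 (cotyledons, non-micropylar endosperm) and 0 to 1 (endosperm regions); these fits have fewer samples. Those fits also take the spread from the compared groups alone, and which of these moved the counts was not tested. Normalizing again took the change in radicle minus micropylar endosperm from 5 to 2. The filter on dim probe sets removed 748 probe sets, 0 of them members. With the replicate block no count moved by over 1.5 times, and 2 calls ended, PSBY (cotyledons, radicle; limma adjusted p = 0.0512) and FBPASE (radicle, micropylar endosperm; 0.0507).

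Leaving out each array gave, as lowest and highest counts, 7 and 11 (cotyledons 3 to 7 h), 6 and 9 (7 to 13 h), 7 and 11 (radicle 1 to 7 h), 0 and 1 (7 to 16 h), 7 and 13 (micropylar endosperm 1 to 7 h), 1 and 3 (7 to 16 h), 2 and 5 (non-micropylar endosperm 3 to 7 h), 5 and 7 (7 to 13 h), 0 and 0 at each testa rupture and the endosperm rupture of the micropylar endosperm, 0 and 1 at that of the radicle, 10 and 13 then 17 and 21 (cotyledons minus radicle, 3 then 13 h), 14 and 17 then 10 and 14 (minus non-micropylar endosperm), 4 and 7 then 3 and 3 (radicle minus micropylar endosperm), 0 and 0 then 2 and 2 (endosperm regions), 11 and 13 (dry parts), 0 and 1 (radicle at 1 h minus dry) and 6 and 9 (cotyledons at 3 h minus dry). For differences in change they were 2 and 4 (cotyledons, radicle), 7 and 9 (cotyledons, non-micropylar endosperm), 2 and 6 (radicle, micropylar endosperm) and 0 and 1 (endosperm regions). Among the counts that moved by over 1.5 times were these. Non-micropylar endosperm, 3 to 7 h, was 2 without replicate 1, 2 or 3 at 7 h. Micropylar endosperm, 1 to 7 h, was 7 without replicate 1 at 1 h. Its 7 to 16 h step was 1 without replicate 2 at 7 h after rupture or 3 at 16 h intact. Radicle, 7 to 16 h, was 0 without replicate 1 at 7 h after rupture. Its endosperm rupture was 0 without replicate 2 at 16 h intact. Radicle at 1 h minus dry was 0 without replicate 1 or 2 at 1 h or 1, 2 or 4 of the dry part. In the differences in change, cotyledons and radicle gave 2 without replicate 2 of the cotyledons at 13 h. Radicle and micropylar endosperm gave 2 without replicate 1, 2 or 3 of the endosperm at 3 h or 2 or 3 at 13 h. They also gave 2 without replicate 1 of the radicle at either time, and 3 without replicate 4 of the endosperm or 3 of the radicle at 13 h. The cause was not tested. Dim members limit what can be seen of falls, since 18 or 19 of 33 lay under the limit at 7 h in the endosperm.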

Other observations

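The chloroplast itself was nearly outside the table, with 2 chloroplast loci. PsbA (ATCG00020), which encodes a reaction centre protein of photosystem II in the plastid and was chosen after its values were seen, was at 9.42 ± 0.16 (SD, n = 4) in whole dry seeds, 9.24 in the dry cotyledon part and 7.90 in the dry radicle part. In cotyledons it was at 8.90, 7.89 and 7.55 at 3, 7 and 13 h, and the steps between them were not past the threshold (limma, adjusted p = 0.0753 and 0.644). It was higher in cotyledons than in the radicle by 2.36 ± 0.39 at 3 h and 2.40 at 13 h (limma, adjusted p = 2.34e-06 and 4.08e-07), and by 2.08 at 13 h without replicate 2 of the cotyledons. In the micropylar endosperm it fell by 1.34 from 1 h to 7 h (limma, adjusted p = 0.00408) and by 1.24 from 7 h to 16 h (adjusted p = 0.0195), and in the radicle it fell by 1.28 from 7 h to 16 h (adjusted p = 0.0192). Over that last step PSBR rose in the micropylar endosperm and ATPC1 in the radicle.

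From 1 h to 7 h in the radicle, where 23% of all probe sets fell and 16.6% rose, 5 of 7 genes of photorespiration and 4 of 12 of thylakoid import and assembly fell and none rose, and 6 of 17 of chlorophyll synthesis fell while 3 rose, CAO, which makes chlorophyll b, falling by 1.80. Carotenoid synthesis counted 0 of 8 higher and 1 lower there. In the micropylar endosperm, against 21.5% lower and 16.7% higher, 6 of 11 further Calvin cycle genes fell and 1 rose, chlorophyll synthesis counted 1 of 17 higher and 1 lower, carotenoid synthesis 2 of 8 higher and 1 lower, CAO fell by 1.92 and the import receptor TOC33 fell by 1.34.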
